A study of Mus musculus with 12 samples.

Results

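The endoplasmic reticulum (ER) is the compartment in which secreted and membrane proteins are inserted, glycosylated, folded and inspected. The 40 genes described here include those of its chaperones, disulfide isomerases, lectin chaperones, protein translocon, oligosaccharyltransferase and degradation machinery. They also include Atf6 and Ern1, whose products sense misfolded protein, and Xbp1, whose product is a transcription factor that helps switch these genes on. All 40 were chosen as a list of symbols, with earlier results of these data known. They were found among the 32047 genes of the count table, Ero1b under an older symbol. All 40 passed the filter on low counts in each comparison, with a lowest count of 25 and a median of 7720.5 over 12 libraries.

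The study overexpressed FGF23 carrying the substitutions R176Q and R179Q in mice and, 3 weeks later, induced acute kidney injury (AKI) by rhabdomyolysis, the breakdown of skeletal muscle. FGF23 is a bone hormone that acts on the renal tubule. RNA from kidney was sequenced in 3 groups of 4 libraries. The first is labelled NC, an abbreviation that the labels leave unexplained. The second, AKI_A_mcherry, is named for the injury and for mCherry, a red fluorescent protein. The third, AKI_A_FGF23_R176QR179Q, is named for the injury and the hormone form and is called the variant group below. The meaning of the A in both injured groups, the strain, sex and age of the mice, the vector and promoter behind the overexpression and the time from injury to collection are not stated. No group with the variant but without injury was analysed here, and none labelled as mCherry without injury, so AKI_A_mcherry differs from NC by the injury and by anything else done to the groups. Nothing in the labels ties libraries to separate animals, so the p-values reflect only how much these libraries vary, which may be technical.

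Libraries held 55324078 to 70638283 counts. Fgf23 had 0 counts in every NC and AKI_A_mcherry library and 320 to 517 counts in the variant libraries. Havcr1, the gene of the tubular injury marker KIM-1, was at 3.26 ± 1.23, 2812 ± 746 and 1048 ± 489 CPM in NC, AKI_A_mcherry and the variant group. Here and below CPM are counts per 1000000 after scaling by library total and TMM factor, means are ± SD with n = 4, and values by library run in order of replicate number. The tubule gene Cdh16, 1 of 5 such markers counted further below, was present in every library, at 983 ± 33.4, 593 ± 38.9 and 599 ± 41.5 CPM. Replicate 3 of AKI_A_mcherry was the highest library of its group for 18 of the 40 genes and the lowest for 2, while replicate 4 was the lowest for 17. In NC, replicate 1 was the highest for 19 and the lowest for 11, and in the variant group replicate 1 was the highest for 19 and the lowest for 9.

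In the ER lumen, the Hsp70 chaperone BiP (Hspa5) binds unfolded chains with the help of J-domain cofactors and nucleotide exchange factors. Glycoproteins cycle through the lectins calnexin and calreticulin, and chains that fail to fold are passed through membrane channels to the cytosol for degradation. When unfolded protein accumulates, ATF6 is cut to release a transcription factor and IRE1 (Ern1) splices the Xbp1 message into an active form. Both factors act on short promoter elements. One of these, the ER stress element (ERSE), was defined on the promoters of ER chaperone genes, several of which are in the list. Tubular cells of the kidney make and secrete much membrane and secretory protein, among it uromodulin, from the thick ascending limb.

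Promoter sequences were read to see how many members carry these elements. The RefSeq table (build GRCm38.p6, whereas the deposited files use GRCm39) gave windows of 250 bases before to 50 bases after the annotated start for 32 of the 40 genes. Manf, Hyou1, Hspa13, Sil1, Atf6, Derl1, Sec61a1 and Spcs3 were not in it. Both strands were searched for CCAAT followed after 9 bases by CCACG, the ERSE. It was found in 10 of the 32 genes (31.2%) and in 37 of 27025 genes with a window (0.137%). The matches are shown 5′ to 3′ on the strand that carries the element, with its 2 conserved blocks in capitals, because the largest rises described below include several of these genes.
Hspa5: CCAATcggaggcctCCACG
Hsp90b1, distal: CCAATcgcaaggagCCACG
Hsp90b1, proximal: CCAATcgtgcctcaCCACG
Dnajc3: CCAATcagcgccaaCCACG
Creld2: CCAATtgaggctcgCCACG
Pdia6: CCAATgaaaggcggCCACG
Ero1b: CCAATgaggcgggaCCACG
Calr: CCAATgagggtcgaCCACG
Canx: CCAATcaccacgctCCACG
Derl3: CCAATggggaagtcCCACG
Syvn1: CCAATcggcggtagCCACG

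Counted from the annotated start, the element lay at -65 to -47 in Hspa5 (chr2:34772025-34772043), -105 to -87 in Dnajc3 (chr14:118937827-118937845), -98 to -80 in Pdia6 (chr12:17266491-17266509), -145 to -127 in Canx (chr11:50325800-50325818) and -44 to -26 in Syvn1 (chr19:6046532-6046550), on the strand of the gene. On the opposite strand it lay at -156 to -138 in Derl3 (chr10:75893242-75893260), -126 to -108 in Creld2 (chr15:88819520-88819538), -201 to -183 in Ero1b (chr13:12565682-12565700) and -162 to -144 in Calr (chr8:84847075-84847093). Hsp90b1 held 1 on its own strand at -212 to -194 (chr10:86705638-86705656) and 1 on the other at -107 to -89 (chr10:86705533-86705551). The shorter ERSE-II, ATTGG followed after 1 base by CCACG, was in Herpud1 at -52 to -42 and in Dnajb11 at 8 to 18, which is 2 of 32 members (6.25%) against 12 of 27025 genes (0.0444%). The block CCACG alone, which all of these elements contain, was in 28 members (87.5%) and in 9589 genes (35.5%). Of the other elements searched, TGACGTGG, bound by XBP1 and overlapping CCACG on the opposite strand, was in 0 members and 193 genes (0.714%). TGATGNAAT, bound by ATF4, was in 0 members and 293 genes (1.08%). A match is only a run of letters and was not tested for binding, and windows held 1 or 2 annotated starts per member.

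Hspa5 had the highest mean of the 40 genes in both injured groups by deposited FPKM, which divide by gene length. Herpud1 had the largest fall in AKI_A_mcherry against NC. The 150 bases before the start of both genes are therefore given whole. On the plus strand of chr2:34771940-34772089 and chr8:94386279-94386428 they read as follows, with the ERSE or ERSE-II blocks in capitals.
Hspa5: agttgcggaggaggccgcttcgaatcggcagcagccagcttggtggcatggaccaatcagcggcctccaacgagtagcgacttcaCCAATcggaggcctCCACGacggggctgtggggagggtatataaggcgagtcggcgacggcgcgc
Herpud1: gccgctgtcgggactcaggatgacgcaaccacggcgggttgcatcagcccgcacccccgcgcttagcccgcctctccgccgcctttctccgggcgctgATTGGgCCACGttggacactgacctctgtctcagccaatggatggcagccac

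**Figure D1:**
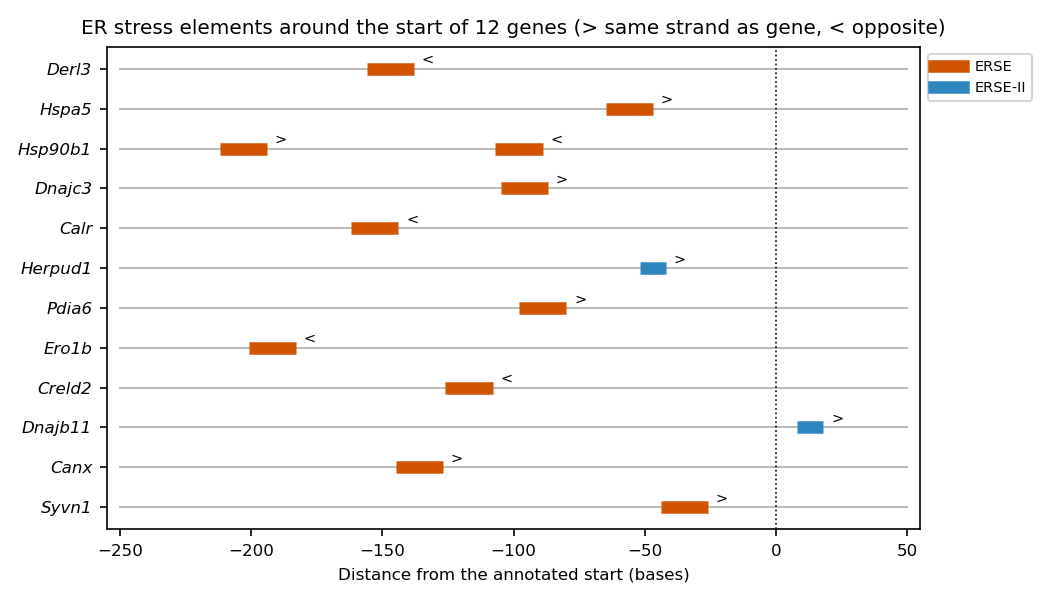
Position of the ERSE and ERSE-II in the promoter windows of 12 genes of the list. The horizontal axis is the distance from the annotated start in bases, each row is a gene, boxes are drawn to scale, and the arrowhead gives the strand relative to the gene; all boxes but that of Dnajb11 lie before the start.

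Differences are log2 fold changes ± SE from edgeR's quasi-likelihood test, fitted for each comparison on its own 8 libraries, with p-values adjusted by Benjamini-Hochberg over all genes tested and called at 0.05. The comparison of AKI_A_mcherry with NC shows the injured kidney beside NC. The words after injury are short for this comparison below and do not set injury apart from other differences between these groups. Of the 40 genes, 20 rose, 8 fell and 12 did not pass, with a median of 0.26. Over all 18724 genes tested 27.2% rose and 26.0% fell, with a median of -0.0026. For 26 members no library of one group reached the range of the other, against 51.5% of all genes. The members moved in both directions, and their log2 fold changes ran from -1.22 (Herpud1) to 3.93 (Derl3).

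The comparison of the variant group with AKI_A_mcherry sets the injured groups side by side. It does not set the overexpressed form apart from other differences between these groups. Here 30 of the 40 genes were higher, 1 (Spcs3) was lower and 9 did not pass. The median was 0.70, against 0.0084 over all 18824 genes, of which 11.7% were higher and 11.4% lower. Libraries did not overlap for 33 members, against 28.4% of all genes. Against NC, 33 of the 40 were higher in the variant group, 2 (Sil1 and Os9) were lower and 5 did not pass, with a median of 0.85 against 0.0109 over all genes. Of 19005 genes tested in that comparison, 21.7% were higher and 20.6% lower, and libraries did not overlap for 41.6% of them and for 36 of the members. The 3 comparisons share groups, so they are not independent of each other. As the list was chosen with earlier results of these data known, its contrast with all genes is a description.

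With libraries scaled by their totals alone, in place of TMM factors, the median of all genes moved to 0.12 for AKI_A_mcherry against NC, 0.21 for the variant group against AKI_A_mcherry and 0.34 for the variant group against NC. The members then split into 23 higher and 6 lower, 34 higher and 0 lower, and 37 higher and 0 lower, and all genes into 5828 higher and 3958 lower, 4060 and 1035, and 7829 and 2096. Fold changes below are relative to the TMM scale, and the genes whose call or direction rests on it are named beside their values.

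**Figure D2:**
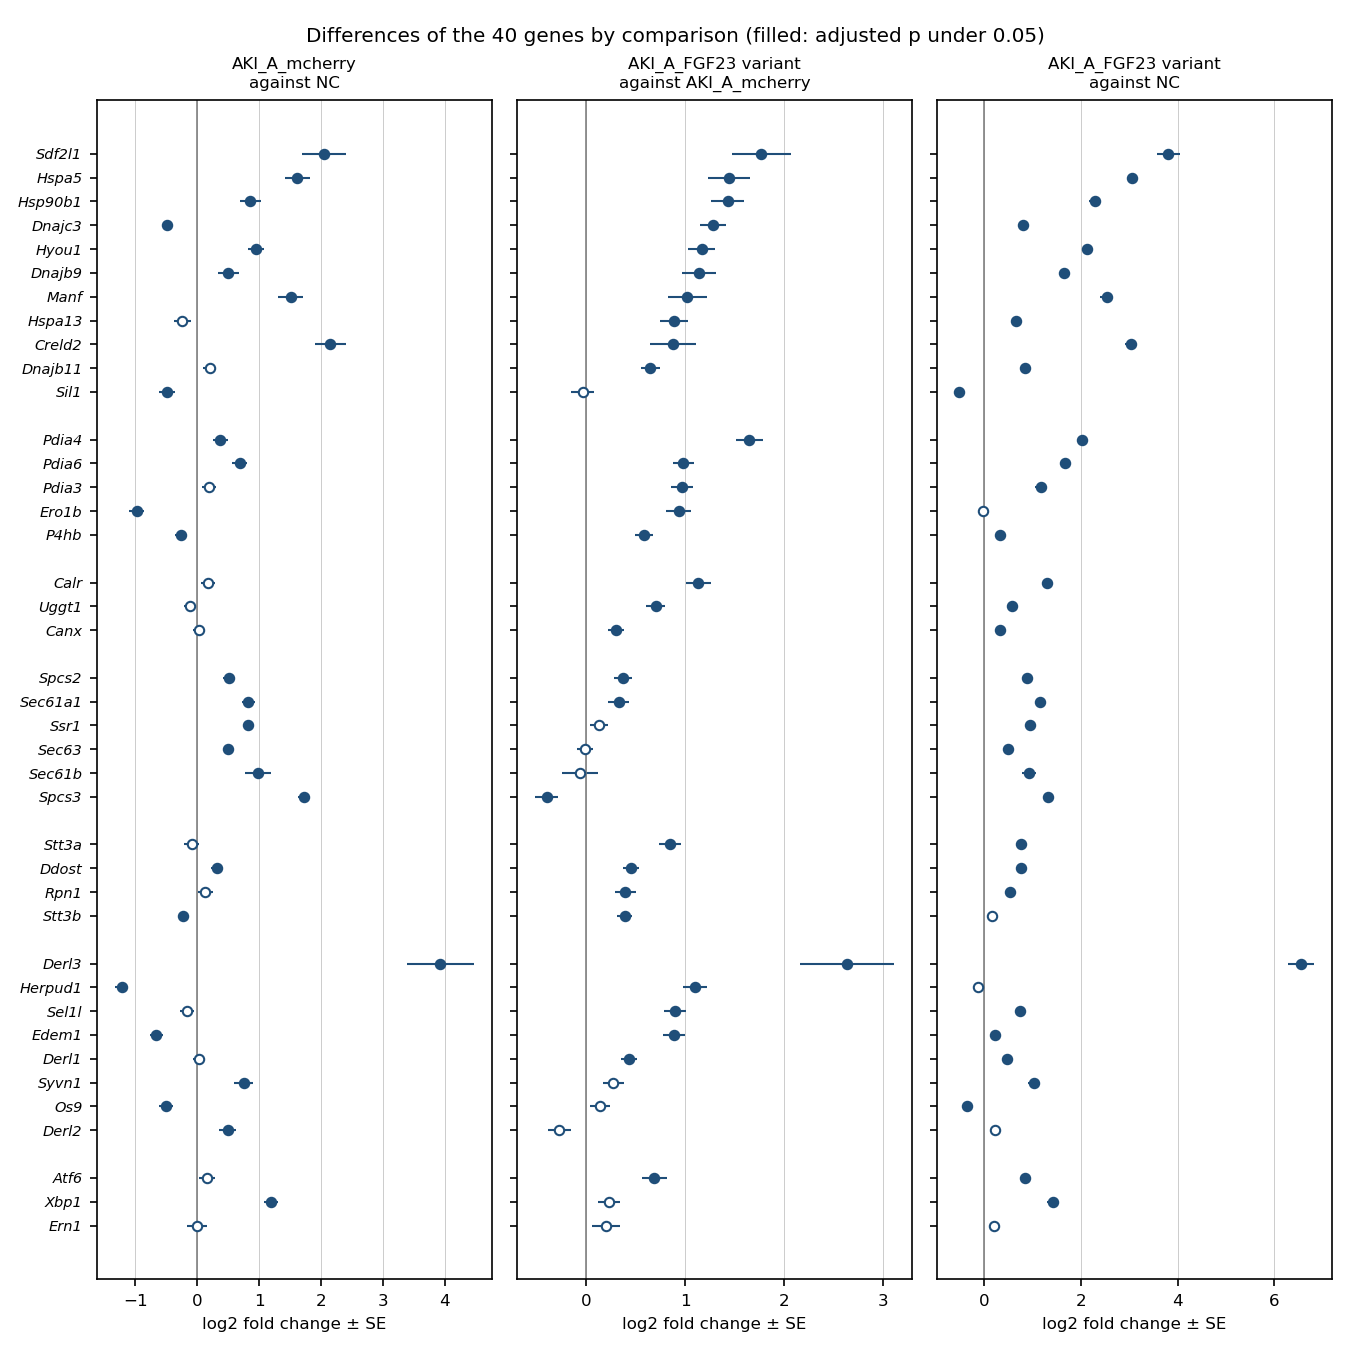
Log2 fold change ± SE of the 40 genes in the 3 comparisons, grouped by role. Filled points passed an adjusted p of 0.05 and open points did not; in the middle panel 30 filled points lie above 0 and 1 (Spcs3) below.

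Among the 11 chaperones, cofactors and small folding factors, 7 rose and 2 fell in AKI_A_mcherry against NC, and 10 were higher and 0 lower in the variant group against AKI_A_mcherry. Over all genes 27.2% rose and 26.0% fell in the former comparison, and 11.7% were higher and 11.4% lower in the latter. Hspa5, the Hsp70 chaperone that also holds the stress sensors inactive, was at 353, 314, 318 and 334 CPM in NC, 972, 781, 1507 and 749 CPM in AKI_A_mcherry and 2875, 2926, 2699 and 2373 CPM in the variant group. The 3 groups were ordered with no overlap, and replicate 3 of AKI_A_mcherry was its highest library. Hspa5 rose 3.08-fold from NC to AKI_A_mcherry (log2 1.62 ± 0.20, adjusted p = 6.88e-05) and was a further 2.72-fold higher in the variant group (log2 1.44 ± 0.21, adjusted p = 0.00208). Without replicate 3 of AKI_A_mcherry these differences were 1.37 and 1.71 on the log2 scale. The variant group exceeded NC 8.35-fold (log2 3.06 ± 0.10, adjusted p = 6.38e-08).

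Sdf2l1, a cofactor of the BiP complex, was at 10.1, 4.60, 5.44 and 5.46 CPM in NC, 20.5, 25.0, 44.8 and 14.0 CPM in AKI_A_mcherry and 99.4, 97.8, 79.9 and 77.03 CPM in the variant group. Replicate 1 of NC lay above the other NC libraries, and the groups still did not overlap. Sdf2l1 had the largest difference of its role group between the injured groups (log2 1.77 ± 0.30, adjusted p = 0.00376) and between the variant group and NC (log2 3.81 ± 0.24, adjusted p = 1.43e-06), and it rose in AKI_A_mcherry against NC (log2 2.04 ± 0.36, adjusted p = 0.000695). Creld2, a secreted protein induced by ER stress, was at 20.4, 15.9, 17.5 and 24.1 CPM in NC, 69.2, 87.0, 133 and 53.4 CPM in AKI_A_mcherry and 159, 156, 165 and 149 CPM in the variant group. It had the largest rise of the role group in AKI_A_mcherry against NC (log2 2.15 ± 0.25, adjusted p = 4.9e-05). The variant libraries of Creld2 lay above all AKI_A_mcherry libraries (log2 0.88 ± 0.23, adjusted p = 0.0223), a call that was lost without replicate 1 of AKI_A_mcherry (adjusted p = 0.0503) or without replicate 1 or 2 of the variant group (adjusted p = 0.0545 and 0.0511).

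Hsp90b1 (GRP94, the ER Hsp90), Hyou1 (an exchange factor for BiP) and Manf (a secreted ER protein that binds BiP) followed the order NC, AKI_A_mcherry, variant group with no overlap. Hsp90b1 averaged 365 ± 41.0, 654 ± 162 and 1758 ± 159 CPM in the 3 groups, Hyou1 72.1 ± 7.34, 138 ± 27.2 and 309 ± 17.7 CPM, and Manf 30.9 ± 5.07, 86.8 ± 27.0 and 176.2 ± 18.7 CPM. Each rose in AKI_A_mcherry against NC, by 0.86, 0.95 and 1.51 on the log2 scale, and was higher again in the variant group, by 1.43, 1.17 and 1.02 (edgeR adjusted p from 0.00611 down to 0.00067). Dnajb9 (ERdj4), a J-domain cofactor that represses IRE1, averaged 45.8 ± 4.08, 64.1 ± 16.8 and 141 ± 3.47 CPM. Its rise in AKI_A_mcherry (log2 0.50 ± 0.17, adjusted p = 0.0296) overlapped NC and was lost without any 1 of 6 libraries, replicates 1, 3 and 4 of each group (adjusted p = 0.0544 to 0.0808). The difference of Dnajb9 between the injured groups was 1.14 ± 0.17 (adjusted p = 0.00217).

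Dnajc3 (p58IPK, a J-domain cofactor that also inhibits the kinase PERK) went the other way after injury. It was at 187, 177, 166 and 177 CPM in NC, 132, 117, 139 and 113 CPM in AKI_A_mcherry and 348, 289, 246 and 331 CPM in the variant group. All AKI_A_mcherry libraries lay below NC (log2 -0.48 ± 0.09, adjusted p = 0.00134) and all variant libraries above both other groups (log2 1.28 ± 0.13, adjusted p = 0.000367 against AKI_A_mcherry and log2 0.80 ± 0.11, adjusted p = 0.000234 against NC). Hspa13, an Hsp70 relative bound to microsomes, and Dnajb11 (ERdj3), a J-domain cofactor, did not pass in AKI_A_mcherry against NC (log2 -0.24, adjusted p = 0.176, and 0.20, adjusted p = 0.129), though Dnajb11 did under library totals alone (0.33, adjusted p = 0.0369). In the variant group Hspa13 averaged 49.3 ± 1.51 against 26.6 ± 5.35 CPM (log2 0.89 ± 0.14, adjusted p = 0.00259) and Dnajb11 146 ± 3.06 against 93.1 ± 9.43 CPM (log2 0.65 ± 0.09, adjusted p = 0.00161).

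Sil1, the other exchange factor for BiP in the list, was the 1 chaperone gene below NC in both injured groups. It was at 57.3, 52.3, 55.2 and 45.2 CPM in NC, 36.1, 45.3, 35.6 and 31.5 CPM in AKI_A_mcherry and 35.9, 35.4, 38.1 and 35.4 CPM in the variant group. Replicate 2 of AKI_A_mcherry reached the lowest NC library, and the variant libraries lay in a narrow band below NC. Sil1 fell in AKI_A_mcherry (log2 -0.48 ± 0.13, adjusted p = 0.00942) and in the variant group (log2 -0.52 ± 0.09, adjusted p = 0.000825) against NC, the latter not when scaled by library totals alone (-0.19, adjusted p = 0.105). The injured groups overlapped for Sil1 (log2 -0.03 ± 0.11, adjusted p = 0.86), with a difference of 0.18 under that scaling.

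**Figure D3:**
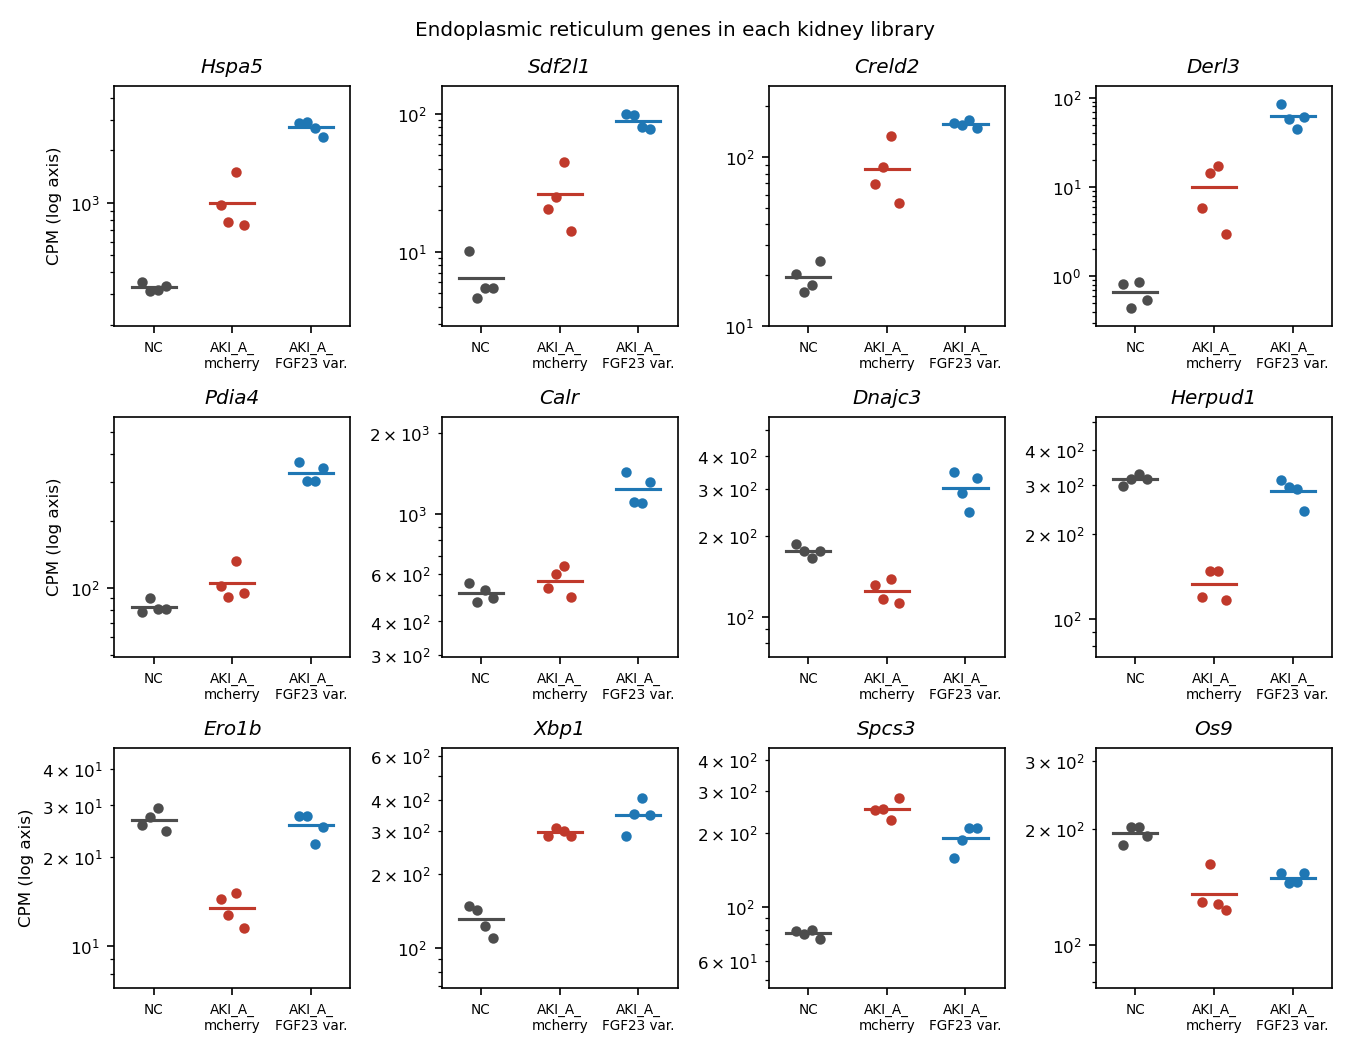
CPM of 12 of the genes in each of the 12 libraries, on log axes that differ between panels. Points are libraries and bars are group means; Herpud1, Ero1b and Dnajc3 are lowest in AKI_A_mcherry, and Hspa5 and Derl3 rise from group to group without overlap.

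All 5 genes of disulfide bond formation were higher in the variant group than in AKI_A_mcherry, while 2 rose and 2 fell in AKI_A_mcherry against NC. All genes tested gave 11.7% higher and 11.4% lower, and 27.2% rising and 26.0% falling, in the same order. Pdia4 (ERp72), an isomerase, was at 78.2, 89.9, 80.8 and 80.8 CPM in NC, 102, 91.4, 133 and 94.7 CPM in AKI_A_mcherry and 367, 302, 303 and 345 CPM in the variant group. The variant libraries stood well above both other groups, which lay close together. Its difference between the injured groups was 3.13-fold (log2 1.65 ± 0.14, adjusted p = 0.000151), the largest of the role group, as was that against NC (log2 2.02 ± 0.10, adjusted p = 3.35e-07). The small rise of Pdia4 in AKI_A_mcherry (log2 0.37 ± 0.12, adjusted p = 0.0235) did not pass without replicate 1, 3 or 4 of NC (adjusted p = 0.0562, 0.0562 and 0.0597). Pdia6 (P5), an isomerase that also acts on the stress sensors, was at 159, 130.1, 129.5 and 122 CPM in NC, 202, 208, 257 and 191 CPM in AKI_A_mcherry and 439, 413, 426 and 412 CPM in the variant group. It rose in AKI_A_mcherry (log2 0.69 ± 0.12, adjusted p = 0.000732) and was higher again in the variant group (log2 0.98 ± 0.11, adjusted p = 0.000591).

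P4hb, the founding disulfide isomerase and a subunit of prolyl hydroxylase, was at 799, 748, 755 and 749 CPM in NC, 620.3, 651, 632 and 598 CPM in AKI_A_mcherry and 968, 928, 885 and 971 CPM in the variant group. AKI_A_mcherry lay below and the variant group above NC, with no overlap. P4hb was 1.20-fold lower in AKI_A_mcherry than in NC (log2 -0.27 ± 0.09, adjusted p = 0.0284), and 1.503-fold higher in the variant group than in AKI_A_mcherry (log2 0.59 ± 0.09, adjusted p = 0.00217). The first of these was lost under library totals alone (-0.14, adjusted p = 0.193) and without any 1 of 6 libraries, replicates 1 and 4 of AKI_A_mcherry and 1 to 4 of NC (adjusted p = 0.0527 to 0.0792). Ero1b, the oxidase that recharges the isomerases, was at 25.8, 27.4, 29.4 and 24.6 CPM in NC, 14.5, 12.7, 15.2 and 11.5 CPM in AKI_A_mcherry and 27.7, 27.7, 22.2 and 25.4 CPM in the variant group. It was 1.96-fold lower in AKI_A_mcherry than in NC (log2 -0.97 ± 0.12, adjusted p = 5.69e-05) and 1.92-fold higher in the variant group than in AKI_A_mcherry (log2 0.94 ± 0.12, adjusted p = 0.00128). The variant group and NC overlapped for Ero1b (log2 -0.04 ± 0.10, adjusted p = 0.78), but under library totals alone the variant group was higher (0.29, adjusted p = 0.031). Pdia3 (ERp57), which works with calnexin and calreticulin, overlapped between NC and AKI_A_mcherry (log2 0.20 ± 0.11, adjusted p = 0.156; passed under library totals alone, at 0.32, adjusted p = 0.0284) and averaged 1009 ± 107 CPM in the variant group against 516 ± 40.6 CPM in AKI_A_mcherry (log2 0.97 ± 0.11, adjusted p = 0.000643).

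The 3 genes of the lectin chaperone cycle did not pass in AKI_A_mcherry against NC, and all 3 were higher in the variant group. Of all genes, 27.2% rose and 26.0% fell in AKI_A_mcherry against NC, and 11.7% were higher in the variant group than in AKI_A_mcherry. Calr (calreticulin, the soluble lectin) was at 556, 471, 525 and 489 CPM in NC, 531, 602, 641 and 492 CPM in AKI_A_mcherry and 1435, 1113, 1103 and 1316 CPM in the variant group. NC and AKI_A_mcherry overlapped (log2 0.17 ± 0.11, adjusted p = 0.224; under library totals alone it passed, at 0.29, adjusted p = 0.0445), and the lowest variant library lay above every other library (2.20-fold, log2 1.14 ± 0.13, adjusted p = 0.000654). Canx (calnexin, the membrane-bound lectin) was at 403, 369, 384 and 399 CPM in NC, 380.2, 386, 391 and 404 CPM in AKI_A_mcherry and 489, 472, 478 and 490.0 CPM in the variant group. Its difference between the injured groups was the smallest of the 3 (log2 0.31 ± 0.08, adjusted p = 0.0222) and was lost without replicate 1, 2 or 5 of the variant group (adjusted p = 0.0579, 0.0523 and 0.0629). Uggt1, the folding sensor that returns glycoproteins to the lectins, was at 47.3, 51.6, 57.4 and 60.4 CPM in NC, 51.5, 48.0, 50.4 and 47.0 CPM in AKI_A_mcherry and 87.5, 77.9, 67.7 and 86.9 CPM in the variant group. It did not pass after injury (log2 -0.12, adjusted p = 0.337, 0.01 under library totals alone) and was higher in the variant group (log2 0.70 ± 0.10, adjusted p = 0.00164).

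The translocon, through which new chains enter the ER, and the signal peptidase, which trims them, showed another pattern. All 6 genes rose in AKI_A_mcherry against NC, and against AKI_A_mcherry 2 were higher, 1 lower and 3 did not pass in the variant group. Shares over all genes were 27.2% rising and 26.0% falling, then 11.7% higher and 11.4% lower. Spcs3, a signal peptidase subunit, was at 79.7, 77.1, 80.1 and 73.9 CPM in NC, 251, 253, 228 and 280.3 CPM in AKI_A_mcherry and 158, 187, 211 and 211 CPM in the variant group. It was the 1 member that was lower in the variant group than in AKI_A_mcherry, although both injured groups lay far above NC. Spcs3 rose 3.30-fold in AKI_A_mcherry (log2 1.72 ± 0.10, adjusted p = 2.65e-07), and the injured groups differed 1.31-fold (log2 -0.40 ± 0.12, adjusted p = 0.0348). That second difference was lost without a filter on low counts (adjusted p = 0.058), under library totals alone (-0.19, adjusted p = 0.271) and without replicate 1, 2 or 4 of AKI_A_mcherry or 1, 2 or 5 of the variant group (adjusted p = 0.0508 to 0.0886).

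Spcs2, the partner subunit, was at 81.2, 67.9, 62.1 and 76.0 CPM in NC, 93.8, 103, 106 and 100.5 CPM in AKI_A_mcherry and 121, 133, 146 and 123 CPM in the variant group. It rose in AKI_A_mcherry (log2 0.51 ± 0.10, adjusted p = 0.00152) and was higher again in the variant group (log2 0.38 ± 0.09, adjusted p = 0.0166), the opposite sign to Spcs3. Sec63, which recruits BiP to the channel, was at 99.2, 95.6, 98.2 and 104 CPM in NC, 138, 146, 131 and 136 CPM in AKI_A_mcherry and 132, 132, 136 and 146 CPM in the variant group. Both injured groups lay above NC and overlapped each other (log2 0.49 ± 0.08, adjusted p = 0.000539 for AKI_A_mcherry against NC and log2 -0.01 ± 0.08, adjusted p = 0.944 for the variant group against AKI_A_mcherry, 0.20 under library totals alone). Sec61b, a channel subunit, and Ssr1, of the translocon-associated complex, also lay above NC in both injured groups on average, at 32.2 ± 7.25, 62.8 ± 17.7 and 60.2 ± 5.77 CPM for Sec61b and 104 ± 3.61, 182 ± 15.5 and 199 ± 8.46 CPM for Ssr1 in the 3 groups. Their differences between the injured groups were -0.06 ± 0.18 (adjusted p = 0.839) for Sec61b, 0.16 under library totals alone, and 0.13 ± 0.09 (adjusted p = 0.319) for Ssr1, which passed under library totals alone (0.34, adjusted p = 0.014). Sec61a1, the pore itself, averaged 121 ± 6.47, 210.5 ± 26.2 and 265 ± 12.1 CPM. Its difference between the injured groups (log2 0.33 ± 0.11, adjusted p = 0.0455) was lost with RLE factors (adjusted p = 0.0502), without a filter on low counts (adjusted p = 0.0601) and without any 1 of 6 libraries, replicates 1 and 4 of AKI_A_mcherry and 1, 2, 3 and 5 of the variant group (adjusted p = 0.0669 to 0.109).

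All 4 genes of the oligosaccharyltransferase, which attaches N-glycans to entering chains, were higher in the variant group than in AKI_A_mcherry. Of all genes, 11.7% were higher in that comparison. Stt3a, the catalytic subunit that works beside the translocon, was at 94.0, 112, 97.0 and 106 CPM in NC, 101, 79.8, 87.0 and 111 CPM in AKI_A_mcherry and 174, 163, 165 and 179.2 CPM in the variant group. NC and AKI_A_mcherry overlapped (log2 -0.09 ± 0.12, adjusted p = 0.565, 0.04 under library totals alone) and the variant libraries lay above both (log2 0.85 ± 0.11, adjusted p = 0.00128). Stt3b, the catalytic subunit that acts on skipped sites, was at 148, 144, 158 and 157 CPM in NC, 126, 124, 128 and 132 CPM in AKI_A_mcherry and 172, 166, 159 and 172 CPM in the variant group. It was lower in AKI_A_mcherry than in NC (log2 -0.23 ± 0.08, adjusted p = 0.034) and higher in the variant group than in AKI_A_mcherry (log2 0.39 ± 0.08, adjusted p = 0.00687). Against NC the variant group did not pass for Stt3b (log2 0.16 ± 0.07, adjusted p = 0.106), but it did under library totals alone (0.49, adjusted p = 0.000243). The lower level in AKI_A_mcherry lost its call without a filter on low counts (adjusted p = 0.0517), under library totals alone (-0.10, adjusted p = 0.374) and without any 1 of 6 libraries, replicates 1 to 3 of AKI_A_mcherry and 2 to 4 of NC (adjusted p = 0.0502 to 0.0865).

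Ddost, a structural subunit, was at 115, 104, 113 and 98.5 CPM in NC, 124, 139, 136 and 129.8 CPM in AKI_A_mcherry and 185, 187, 173 and 177 CPM in the variant group. Its groups were ordered with no overlap (log2 0.32 ± 0.09, adjusted p = 0.0132 for AKI_A_mcherry against NC and log2 0.45 ± 0.08, adjusted p = 0.00453 for the variant group against AKI_A_mcherry). Rpn1, which presents substrates, averaged 213 ± 21.6, 230.4 ± 30.4 and 303 ± 11.3 CPM. Its difference between the injured groups (log2 0.40 ± 0.11, adjusted p = 0.0237) was lost without replicate 1 or 4 of AKI_A_mcherry or 1, 2 or 5 of the variant group (adjusted p = 0.0503 to 0.0662).

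The 8 genes of ER-associated degradation spread widest, a width that rests on Derl3, the highest of them in all 3 comparisons. After injury 3 rose, 3 fell and 2 did not pass, against 27.2% rising and 26.0% falling over all genes. In the variant group 5 were higher and 0 lower than in AKI_A_mcherry, against 11.7% and 11.4% of all genes. Derl3, a member of the derlin family that helps misfolded glycoproteins out of the ER, was at 0.809, 0.439, 0.866 and 0.547 CPM in NC, 5.77, 14.2, 17.3 and 2.94 CPM in AKI_A_mcherry and 84.7, 58.2, 44.4 and 60.7 CPM in the variant group. It was barely present in NC, varied 67.5% (coefficient of variation) between AKI_A_mcherry libraries and was high in every variant library. Derl3 rose 15.2-fold in AKI_A_mcherry (log2 3.93 ± 0.54, adjusted p = 0.000147) and was a further 6.19-fold higher in the variant group (log2 2.63 ± 0.48, adjusted p = 0.00493). With limma-voom and quality weights, which give less weight to libraries that deviate, the same differences were 3.26 and 3.40 on the log2 scale (adjusted p = 0.00251 and 0.000632). Derl3 had the largest fold change of the 40 genes in all 3 comparisons, 94.2-fold for the variant group against NC (log2 6.56 ± 0.27, adjusted p = 1.84e-07).

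Its relatives changed less. Derl1, a channel component, averaged 136 ± 6.21, 136 ± 7.23 and 184 ± 8.60 CPM, with log2 0.44 ± 0.08, adjusted p = 0.0057 between the injured groups. Derl2 was at 57.2, 42.5, 46.3 and 45.7 CPM in NC, 60.8, 83.0, 63.4 and 58.7 CPM in AKI_A_mcherry and 53.7, 54.7, 56.9 and 55.1 CPM in the variant group. It rose in AKI_A_mcherry (log2 0.49 ± 0.14, adjusted p = 0.0118), and the variant libraries lay below those of AKI_A_mcherry without passing the test (log2 -0.27 ± 0.11, adjusted p = 0.116). Against NC the variant group did not pass for Derl2 (log2 0.22 ± 0.10, adjusted p = 0.0894), but it did under library totals alone (0.55, adjusted p = 0.000581), with limma-voom (adjusted p = 0.0185) and without replicate 1 of NC (adjusted p = 0.00702).

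Herpud1, which organises the degradation complex in the membrane, was at 297, 315, 326 and 315 CPM in NC, 119.6, 148, 148 and 117 CPM in AKI_A_mcherry and 311, 294, 289 and 241 CPM in the variant group. Every AKI_A_mcherry library lay below every library of NC and of the variant group, which overlapped. Herpud1 had the largest fall of the 40 genes in AKI_A_mcherry against NC, 2.32-fold (log2 -1.22 ± 0.11, adjusted p = 6.72e-06), and was 2.14-fold higher in the variant group than in AKI_A_mcherry (log2 1.10 ± 0.12, adjusted p = 0.000587). Against NC the variant group did not pass (log2 -0.12 ± 0.09, adjusted p = 0.31), and the sign turned under library totals alone (0.21, adjusted p = 0.0759). Edem1, which marks misfolded glycoproteins for removal, averaged 123 ± 4.42, 76.7 ± 10.5 and 142 ± 11.3 CPM, with a fall in AKI_A_mcherry (log2 -0.66 ± 0.10, adjusted p = 0.000382) and a higher level in the variant group (log2 0.89 ± 0.11, adjusted p = 0.00108). Its smaller difference between the variant group and NC (log2 0.23 ± 0.08, adjusted p = 0.0425) was lost with RLE factors (adjusted p = 0.0522), without a filter on low counts (adjusted p = 0.0561), with all 12 libraries in 1 fit (adjusted p = 0.123) and without any 1 of 7 libraries, every NC library and replicates 1, 2 and 5 of the variant group (adjusted p = 0.0628 to 0.102).

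Os9, a lectin that delivers glycoproteins to the ubiquitin ligase, was at 182, 202, 203 and 192 CPM in NC, 129, 162, 127 and 123 CPM in AKI_A_mcherry and 154, 145, 146 and 154 CPM in the variant group. Replicate 2 of AKI_A_mcherry lay above its group, and both injured groups lay below NC. Os9 fell in AKI_A_mcherry (log2 -0.50 ± 0.11, adjusted p = 0.00296), and the injured groups overlapped (log2 0.15 ± 0.10, adjusted p = 0.329), with a call under library totals alone (0.36, adjusted p = 0.0153). It was lower in the variant group than in NC (log2 -0.36 ± 0.07, adjusted p = 0.00241), a call that was lost under library totals alone (-0.03, adjusted p = 0.757). Sel1l and Syvn1 (HRD1) form the ligase itself. Sel1l averaged 97.1 ± 9.40, 85.7 ± 8.95 and 159.8 ± 16.7 CPM and was higher in the variant group than in AKI_A_mcherry (log2 0.90 ± 0.11, adjusted p = 0.000859). Syvn1 averaged 44.3 ± 8.28, 73.7 ± 10.6 and 89.3 ± 3.19 CPM, rose in AKI_A_mcherry (log2 0.75 ± 0.15, adjusted p = 0.00168) and did not pass between the injured groups (log2 0.28 ± 0.11, adjusted p = 0.0891), although their libraries did not overlap; it passed with limma-voom (adjusted p = 0.0237), without replicate 3 of AKI_A_mcherry (adjusted p = 0.0493) and under library totals alone (adjusted p = 0.0102).

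Of the sensors and their transcription factor, Xbp1 was at 149, 142, 123 and 109.9 CPM in NC, 286, 309, 299 and 286 CPM in AKI_A_mcherry and 284, 349, 406 and 346 CPM in the variant group. Both injured groups lay above NC and overlapped each other. Xbp1 rose in AKI_A_mcherry (log2 1.19 ± 0.11, adjusted p = 9.48e-06) and did not pass between the injured groups (log2 0.23 ± 0.11, adjusted p = 0.161), though it did under library totals alone (0.44, adjusted p = 0.0182). Gene counts do not separate spliced from unspliced Xbp1, so the active form was not measured. Atf6 was at 49.6, 59.0, 53.0 and 60.3 CPM in NC, 66.7, 46.0, 68.8 and 63.4 CPM in AKI_A_mcherry and 99.9, 101, 91.2 and 102 CPM in the variant group. It overlapped between NC and AKI_A_mcherry (log2 0.16 ± 0.13, adjusted p = 0.323), passing there only without replicate 2 of AKI_A_mcherry among the 8 libraries left out in turn (adjusted p = 0.0364). In the variant group Atf6 was higher than in AKI_A_mcherry (log2 0.69 ± 0.13, adjusted p = 0.00515). Ern1, the gene of IRE1, was at 19.8, 25.9, 25.8 and 28.3 CPM in NC, 29.2, 18.5, 22.7 and 27.8 CPM in AKI_A_mcherry and 27.2, 28.5, 27.6 and 29.8 CPM in the variant group. The 3 groups overlapped, and Ern1 passed in none of the 3 comparisons (-0.0025, 0.21 and 0.20 in order, adjusted p = 0.991, 0.314 and 0.174). Under library totals alone, Ern1 was at 0.13 for AKI_A_mcherry against NC and was called higher for the variant group against NC (0.53, adjusted p = 0.0024).

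The 10 members with an ERSE in the window and the 22 with a window but no ERSE can be set side by side as a description. In the variant group against AKI_A_mcherry, 9 of the 10 were higher and 0 lower, with a median of 1.06 and a range of 0.28 (Syvn1) to 2.63 (Derl3). Of the 22, 15 were higher and 0 lower, with a median of 0.52 and a range of -0.27 (Derl2) to 1.77 (Sdf2l1). Over all genes 11.7% were higher and 11.4% lower. In AKI_A_mcherry against NC, the 10 had 6 higher and 2 lower (Dnajc3 and Ero1b) with a median of 0.72, and the 22 had 10 higher and 5 lower with a median of 0.20. All genes had 27.2% higher and 26.0% lower there, so the lower count of the 22 lies near that share. Herpud1 and Dnajb11, with an ERSE-II and no ERSE, are among the 22. Since the element was described on ER chaperone promoters, its frequency among the members is not independent of how such lists are made.

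Levels of different genes were compared on the deposited FPKM scale, which divides by gene length and sequencing depth and holds no TMM factor. Those factors were 0.879 to 0.911 in NC and 1.12 to 1.15 in the variant group. Differences between groups in FPKM or in shares of counts thus follow library totals and place the variant group higher than TMM does. In NC the highest of the 40 were P4hb (219 ± 7.17 FPKM), Calr (146 ± 10.2 FPKM) and Pdia3 (119.7 ± 12.9 FPKM). By its mean, Hspa5 was 7th in NC (64.1 ± 2.66 FPKM) and the first in AKI_A_mcherry (216 ± 82.6 FPKM) and in the variant group (671 ± 58.0 FPKM). In AKI_A_mcherry, Hspa5 lay below P4hb in replicate 2 (152 against 188 FPKM) and in replicate 4 (166 against 196 FPKM). Derl3 was the last of the 40 in NC (0.263 ± 0.0806 FPKM) and reached 32.5 ± 8.89 FPKM in the variant group, between Derl1 (57.7 ± 2.81 FPKM) and Derl2 (7.15 ± 0.171 FPKM). Together the 40 genes took 0.507% to 0.545% of all counts in NC libraries, 0.673% to 0.876% in AKI_A_mcherry and 1.502% to 1.68% in the variant group. The share of Hspa5 in their summed FPKM was 4.59% to 4.93%, 8.87% to 14.9% and 14.8% to 18.1% in the same order of groups.

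**Figure D4:**
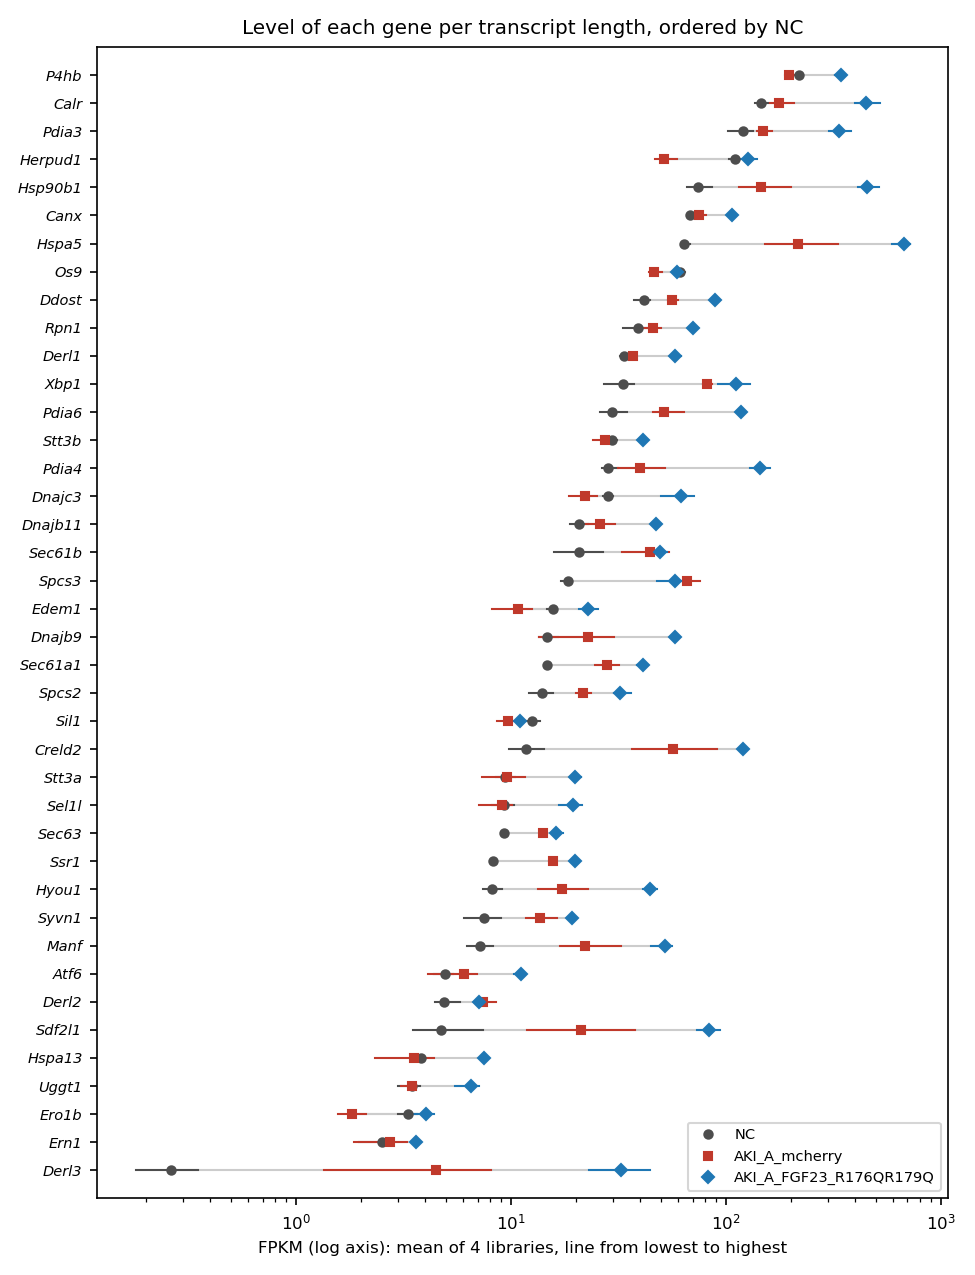
Deposited FPKM of the 40 genes on a log axis, without TMM factors, ordered by the mean of NC. Symbols are means of 4 libraries and lines run from the lowest to the highest library; the variant group lies to the right of both other groups for most genes, and Derl3 spans the widest range.

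Libraries of one group agreed most closely in the variant group. The median coefficient of variation over the 40 genes was 8.995% in NC, 13.2% in AKI_A_mcherry and 4.96% in the variant group. Within AKI_A_mcherry, replicate 3 held the highest level of 18 genes, Hspa5, Sdf2l1, Creld2 and Derl3 among them. Its Havcr1 level, 1891 CPM, was the lowest of that group, and replicate 4, the lowest library for 17 of the genes, had the highest Havcr1 level at 3639 CPM. In the variant group Havcr1 ran from 531 CPM in replicate 1, which was the highest library for 19 of the genes, to 1546 CPM in replicate 5. Replicate 5 was the lowest library for 10 of the genes and the highest for 8. The lowest for most genes was replicate 3, for 15 of them, with Havcr1 at 1376 CPM. With 4 libraries a group, no correlation was computed. Without replicate 3 of AKI_A_mcherry, 31 members were higher and 1 lower in the variant group than in AKI_A_mcherry, and 19 rose and 7 fell in AKI_A_mcherry against NC.

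Other genes of the same pathway were followed in 6 lists holding 166 genes outside the 40. In the variant group against AKI_A_mcherry, 43 of 162 tested were higher and 6 lower, against 11.7% and 11.4% of all genes. Under library totals alone 78 were higher and 3 lower, against 4060 and 1035 of all 18824 genes. In AKI_A_mcherry against NC, 64 of 163 rose and 35 fell, against 27.2% and 26.0% of all genes. The variant group was higher than NC for 82 of 163 and lower for 18, against 21.7% and 20.6% of all genes. Among chaperones and folding enzymes of the lumen, 9 of 36 were higher and 1 lower between the injured groups. The prolyl isomerase gene Fkbp11 was at 20.8 ± 3.74 against 9.04 ± 4.34 CPM, 2.31-fold, adjusted p = 0.016, and the isomerase gene Pdia5 at 27.6 ± 3.03 against 16.7 ± 2.42 CPM, 1.65-fold, adjusted p = 0.00491. Erp29, of the isomerase fold, was the 1 that was lower, at 108 ± 10.9 against 168 ± 36.8 CPM, 1.55-fold, adjusted p = 0.0136. In the translocon and signal recognition list 3 of 20 were higher and 0 lower, with Sec62 at 182 ± 9.20 against 127 ± 7.34 CPM, 1.43-fold, adjusted p = 0.00317, and Srpr, the receptor of the signal recognition particle, at 198 ± 15.6 against 137 ± 15.2 CPM, 1.45-fold, adjusted p = 0.00758.

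In the list of N-glycosylation, 7 of 30 were higher and 3 lower between the injured groups, against 11.7% and 11.4% of all genes. Pgm3, of sugar nucleotide synthesis, was at 39.8 ± 2.89 against 21.4 ± 0.925 CPM, 1.86-fold, adjusted p = 0.000367, and Magt1, an oligosaccharyltransferase subunit, at 82.4 ± 6.95 against 52.0 ± 2.91 CPM, 1.59-fold, adjusted p = 0.00131. Uap1, the enzyme after Pgm3 in the same route, was lower, at 90.9 ± 16.3 against 141 ± 11.2 CPM, 1.55-fold, adjusted p = 0.00809, as was Ost4, a small oligosaccharyltransferase subunit, at 78.2 ± 7.06 against 117 ± 25.7 CPM, 1.49-fold, adjusted p = 0.0194. The call for Ost4 was lost under library totals alone (adjusted p = 0.0533) and without replicate 1 or 5 of the variant group (adjusted p = 0.0616 and 0.0503). In the degradation list 4 of 32 were higher and 2 lower, the former near the 11.7% higher over all genes. Selenos, a membrane partner of the derlins, was at 91.3 ± 8.90 against 58.9 ± 3.79 CPM, 1.55-fold, adjusted p = 0.00223. The glycoprotein F-box gene Fbxo6 was lower, at 35.2 ± 3.12 against 51.0 ± 5.80 CPM, 1.45-fold, adjusted p = 0.00718.

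Among the other stress sensors and transcription factors, 7 of 16 were higher and 0 lower in the variant group than in AKI_A_mcherry. Over all genes 11.7% were higher and 11.4% lower in that comparison. Chac1, a glutathione-degrading target of ATF4, was at 22.8 ± 5.56 against 9.35 ± 1.81 CPM, 2.44-fold, adjusted p = 0.00273, and Crebrf, a regulator of the transcription factor CREB3, at 37.0 ± 2.97 against 23.3 ± 1.13 CPM, 1.59-fold, adjusted p = 0.00142. In AKI_A_mcherry against NC, Trib3, a pseudokinase of the ATF4 and CHOP route, was at 28.3 ± 0.836 against 1.21 ± 0.650 CPM, 23.8-fold, adjusted p = 1.4e-06, and Ddit3, the gene of CHOP, at 56.9 ± 20.1 against 10.04 ± 1.79 CPM, 5.76-fold, adjusted p = 1.44e-05, while Crebrf fell, at 23.3 ± 1.13 against 62.5 ± 5.69 CPM, 2.65-fold, adjusted p = 1.27e-06. Transport from the ER to the Golgi had 13 of 28 higher and 0 lower in the variant group against AKI_A_mcherry. The COPII coat gene Sec24d was at 75.8 ± 4.54 against 37.1 ± 6.13 CPM, 2.05-fold, adjusted p = 0.000812, and the cargo receptor gene Lman1 at 180.0 ± 18.4 against 94.9 ± 7.46 CPM, 1.90-fold, adjusted p = 0.000618. In AKI_A_mcherry against NC that list had 8 of 28 rising and 6 falling, against 27.2% and 26.0% of all genes. Kdelr3, a receptor that returns ER residents, was at 10.9 ± 1.86 against 2.37 ± 0.340 CPM, 4.65-fold, adjusted p = 4.78e-06. Surf4, a cargo receptor, was at 412 ± 34.9 against 194 ± 6.65 CPM, 2.16-fold, adjusted p = 4.29e-06.

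Markers of several cell types of the tissue differed between the same groups. Over all genes 27.2% rose and 26.0% fell in AKI_A_mcherry against NC, and 11.7% were higher and 11.4% lower between the injured groups. In kidney tissue, fewer cells of a type and less RNA per cell cannot be told apart. Of 6 thick ascending limb markers, 5 fell in AKI_A_mcherry against NC and 5 were higher in the variant group than in AKI_A_mcherry, and their summed level was 5862 to 8728 CPM in NC, 3106 to 3538 in AKI_A_mcherry and 5019 to 7524 in the variant group. Umod, the most abundant of them, averaged 5064 ± 1019.6, 3064 ± 178 and 5299 ± 1141 CPM. All 7 proximal markers of segments S1 and S2 fell after injury and 3 were higher in the variant group, with sums of 11420.5 to 15696, 1600.4 to 2536 and 2226 to 4672 CPM. Of 4 distal convoluted tubule markers, 3 fell after injury and 3 were higher in the variant group than in AKI_A_mcherry, with sums of 891 to 1658, 409 to 782 and 1067 to 1269 CPM. All 4 markers of segment S3 fell and 2 were higher in the variant group (sums of 1131 to 1966, 114 to 162 and 175.7 to 292 CPM). Of 5 collecting duct markers, 3 fell and 1 rose after injury and 2 were higher in the variant group (sums of 333 to 481, 274 to 649 and 252 to 352 CPM). Of 6 fibroblast and pericyte markers, 3 rose and 2 fell after injury and 2 were higher in the variant group than in AKI_A_mcherry, with sums of 212 to 338, 271 to 537 and 450.1 to 494 CPM. Of 5 endothelial markers, 0 passed after injury and 2 were higher in the variant group (sums of 247 to 324, 163 to 272 and 309 to 402 CPM). Podocyte markers passed in neither of these comparisons, and of 5 macrophage and monocyte markers 1 was higher and 2 were lower in each. Of 5 markers of the tubule of any segment, Cdh16 among them, 2 rose and 2 fell after injury. Between the injured groups 0 of these 5 passed (sums of 1308 to 1436, 906 to 1055 and 877 to 1005 CPM in the 3 groups). Of 5 liver markers, 1 rose and 3 fell after injury, and 2 were higher and 1 lower in the variant group than in AKI_A_mcherry. The part of these cell types in the results for the 40 genes was not tested.

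Plasma cells carry much ER, so their markers were read as well. The 6 genes of that list summed to 36.8 to 49.7 CPM in NC, 113 to 139.7 in AKI_A_mcherry and 35.6 to 65.6 in the variant group. Between the injured groups 1 of 5 tested was higher and 1 lower. The antibody genes Jchain and Igkc were at 4.07 ± 1.11 and 7.83 ± 2.79 CPM in NC, 0.422 ± 0.381 and 1.77 ± 0.910 CPM in AKI_A_mcherry and 1.15 ± 0.561 and 2.71 ± 0.477 CPM in the variant group, and the plasma cell ER gene Mzb1 was at 1.35 ± 0.529, 0.402 ± 0.109 and 0.531 ± 0.441 CPM, all highest in NC. Sdc1, which epithelial cells express too, made up most of the summed level in the injured groups, at 19.6 ± 6.73, 120.2 ± 12.8 and 41.3 ± 14.5 CPM. Tnfrsf17 had 0 counts in all 8 injured libraries. Lymphocyte markers summed to at most 1.91 CPM, neutrophil markers to at most 9.44 CPM and skeletal muscle markers to at most 0.948 CPM in any library. Low as they were, all 4 neutrophil markers tested rose after injury, and 0 passed between the injured groups. Their list summed to 0.784 to 1.35 CPM in NC, 2.74 to 9.44 in AKI_A_mcherry and 1.77 to 5.77 in the variant group. Of the 78 markers found, 0 were at 0 in every library.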

How the data were processed

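Kidney RNA of 12 mouse libraries was poly(A)-selected, marked for strand and sequenced in pairs, per the labels' protocols. The tools fastp, StringTie and edgeR and the genome build GRCm39 appear in the submitters' processing notes. Tool versions, the aligner, the annotation and the use of strand in counting are not stated, so reads of overlapping genes on opposite strands cannot be told apart. Per the file headers, the authors deposited a count and an FPKM value (divided by gene length and by sequencing depth) per gene in each library. The count values were used for all tests and for CPM, and the FPKM values for levels between genes. Gene lengths implied by FPKM varied by a median of 0.497% between libraries over 1245 genes.

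The value 4 was more frequent (11995 cells of the table) than 3 (5847) or 5 (3638), so deposited counts may not be single molecules; the cause was not tested. No within-group pair of libraries was a duplicate (chi-square per degree of freedom 31.64 to 135.6 over 18 pairs). Symbols were found for 31942 of 32047 gene identifiers in a supplied annotation.

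Each fit held the 8 libraries of 1 comparison and used edgeR 4.0.16 in R 4.3.3 (TMM, filterByExpr, quasi-likelihood F test, two-sided, Benjamini-Hochberg adjustment over all genes, threshold 0.05). The SE is the log2 fold change divided by the square root of F. CPM use TMM factors over all 12 libraries. The fit was checked on simulated counts in which 200 genes had known changes. The members, pathway lists, marker lists and tests were chosen with earlier results of these data known. Values by library are given for the members with the largest and smallest change of each role in each comparison. Hspa5 and Dnajc3 are given by library as well, outside that rule. Of each pathway list at most the 2 largest called rises and falls with a mean of at least 5 CPM are named. The alternatives comprised 3 other scalings (RLE, upper quartile, and library totals alone), 2 other filters (none, and a mean CPM of 5 or more), DESeq2 1.42.0, limma-voom (limma 3.58.1) with quality weights, a single fit of all 12 libraries, a block on replicate number, and leave-one-out fits. Promoters were read from the RefSeq table with Python 3.11.15. For 29 of the 33 windows of members, the bases after the start occurred in a GENCODE transcript of the same gene.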

Additional observations from a re-analysis of the deposited data

Results flagged for a closer look

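Of 120 groups of 4 libraries checked, 1 for each of the 40 genes in each group, 4 held a library far from the other 3, by the gap to its neighbour relative to the range of the group (Dixon's test at its 95% critical value). Chance alone gives about 1 in 20. Sdf2l1 was at 10.1 CPM in replicate 1 of NC, against 4.60 to 5.46 CPM in the other NC libraries. P4hb was at 799 CPM in the same library, against 748 to 755 CPM. Os9 was at 162 CPM in replicate 2 of AKI_A_mcherry, against 123 to 129 CPM. Sil1 was at 38.1 CPM in replicate 3 of the variant group, against 35.4 to 35.9 CPM.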

How the results depend on the processing

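The number of members called higher stayed within 1.5 times under all alternatives run. Members lower in the variant group than in AKI_A_mcherry numbered 0 under library totals alone, without a filter on low counts and with the replicate number as a block, and 0 to 1 with a library left out (1 only without replicate 3 of either group). Members lower in the variant group than in NC numbered 0 under library totals alone and 1 with the block. The signs that turned belonged to differences that did not pass on the TMM scale. For AKI_A_mcherry against NC these were Ern1 (0.13 under library totals alone, 0.0601 with limma-voom), Stt3a (0.0427 under library totals alone) and Uggt1 (0.0063). For the variant group against AKI_A_mcherry they were Sec63 (0.20 under library totals alone, 0.0008 with limma-voom, 0.0063 with a mean of at least 5 CPM), Sil1 (0.18 and 0.0609 under the first pair) and Sec61b (0.16 and 0.13). For the variant group against NC they were Herpud1 (0.21) and Ero1b (0.29) under library totals alone. With a library left out, Ern1 ran from -0.10 to 0.11 and Derl1 from -0.0141 to 0.0538 for AKI_A_mcherry against NC. Over the variant group against AKI_A_mcherry, Sec63 ran from -0.0434 to 0.0237, Sil1 from -0.10 to 0.08 and Sec61b from -0.19 to 0.12, and over the variant group against NC, Ero1b ran from -0.0843 to 0.0265. Leaving out 1 library gave 18 to 21 members higher and 6 to 7 lower, 26 to 31 and 0 to 1, and 32 to 33 and 2 in the 3 comparisons. The cause of these changes was not tested. Deviations of same-numbered libraries correlated at -0.288 to 0.0836, 0.0819 to 0.190 and -0.169 to -0.0819 in the 3 comparisons. Those of differently numbered libraries correlated at -0.191 to 0.227, -0.24 to 0.281 and -0.300 to 0.262. The same-numbered pairs, 3 or 4 a comparison, are too few to tell whether the numbers pair the libraries. With the number as a block, 17 members were higher and 6 lower, 23 and 0, and 30 and 1, while all genes fell to 4370 higher and 4250 lower, 984 and 803, and 2388 and 2335. Between the injured groups the calls lost with the block were Stt3b, Ddost, Rpn1, Canx, Derl1, Sec61a1, Spcs2 and Spcs3. In the 3 comparisons, 4 libraries a group limit what can be called, and a member that missed the threshold is not shown to be unchanged. Pathway genes, not members, were called higher for 18 and lower for 0 of 162 between the injured groups with the block.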

Other observations

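The ERSE is rare outside the list: 27 other genes held it in their windows, 17 of them were in the count table and 12 were tested. In the variant group against AKI_A_mcherry 2 of these 12 were higher, 1 was lower and their median was 0.43 on the log2 scale. These counts lie near the shares over all genes, 11.7% higher and 11.4% lower. Alg12, a mannosyltransferase of N-glycan assembly in the ER and so a gene of the same pathway, was higher (0.40 ± 0.10, adjusted p = 0.0173, edgeR). So was Acacb, an acetyl-CoA carboxylase (1.15 ± 0.23, adjusted p = 0.00751). Spats2l was lower (-0.81 ± 0.21, adjusted p = 0.0207). In AKI_A_mcherry against NC, 1 of the 12 rose (Zfp57, 1.19 ± 0.20, adjusted p = 0.000645) and 1 fell (Acacb, -1.55 ± 0.19, adjusted p = 7.22e-05), with a median of -0.70. Over all genes 27.2% rose and 26.0% fell. The other 9 tested genes of this group did not pass in the comparison of the injured groups. These genes were named after their values were seen.

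Bhlha15 (MIST1), a transcription factor of secretory cells and a target of XBP1, was picked out after its values were seen. It was at 0.167 ± 0.135 CPM in NC, 1.01 ± 0.434 CPM in AKI_A_mcherry and 5.94 ± 0.581 CPM in the variant group, with 5 to 20, 29 to 74 and 384 to 513 counts per library. The 3 groups did not overlap.

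Against NC, 21.7% of all genes were higher and 20.6% lower in the variant group. Of the genes of ER to Golgi transport, 17 of 28 were higher and 1 was lower. Of the degradation genes outside the 40, 13 of 32 were higher and 11 lower. In that list Fbxo2, a glycoprotein F-box gene, was at 12.8 ± 1.08 against 1.47 ± 0.536 CPM, 8.78-fold, adjusted p = 3.84e-06, and Marchf6, a ubiquitin ligase of the ER membrane, at 107 ± 12.7 against 226 ± 32.2 CPM, 2.08-fold, adjusted p = 8.29e-05, the latter lower. Marchf6 was lower in AKI_A_mcherry than in NC as well, at 85.0 ± 9.86 against 226 ± 32.2 CPM, 2.62-fold, adjusted p = 1.06e-05.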
